A study of Mus musculus with 24 samples.

Results

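The response of unpolarized mouse peritoneal macrophages (M0) to ONX-0914 was measured by sequencing of polyA RNA, in 4 libraries of cells given ONX-0914 (M0_ONX) against 4 libraries of M0 cells without it. These are 8 of the 24 libraries of a study that also treated M1 cells (LPS and IFN-γ) and M2 cells (IL-4) with the same compound, in 6 groups of 4. The labels give the treatments of these groups as control and control with ONX-0914, and name no polarizing agent for either. Each replicate pooled macrophages of 2 to 3 mice to 50000 cells, and the replicates are labelled independent. The dose, the time of exposure and the strain, age and genotype of the mice were not stated in the material used.

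ONX-0914 is a peptide epoxyketone that binds covalently to the catalytic threonine of proteasome subunits and prefers LMP7 (Psmb8), the chymotrypsin-like subunit of the immunoproteasome. The 26S proteasome is a 20S barrel of α and β rings capped by 19S particles that recognise ubiquitin, unfold the substrate and feed it into the barrel. In immune cells the inducible subunits Psmb8, Psmb9 and Psmb10 can replace the constitutive catalytic subunits Psmb5, Psmb6 and Psmb7. When proteasome activity is limiting, the transcription factor NRF1 (Nfe2l1), which is pulled out of the ER membrane by the p97 ATPase and clipped by DDI2, is known to drive the proteasome genes. The related factor NRF2 (Nfe2l2), held down by KEAP1, drives antioxidant genes, and ATF4 drives amino acid supply genes in the integrated stress response.

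The M0 libraries held 18480233 to 21821483 counts and the M0_ONX libraries 18788879 to 19411323. Levels below are CPM, counts relative to library size after TMM scaling, and every adjusted p is from edgeR's quasi-likelihood test with Benjamini-Hochberg adjustment over 14692 tested genes, called under 0.05. Mitochondrial genes took 1.71% to 1.78% of the counts in M0 and 1.57% to 1.65% in M0_ONX. The cells carried the markers of their label in every library: Adgre1 (F4/80) lay at 186 CPM in M0 and 188 in M0_ONX, and Gata6, the factor of large peritoneal macrophages, at 26.5 and 26.4. Timd4, another marker of resident cells, was close to 0 in both groups (at most 0.434 CPM). M1 replicate 2 stood apart from all other libraries, with 0.300% of its counts on mitochondrial genes. It is in neither M0 group: it enters the M0 comparison through the shared estimate of spread, and it is 1 of the 4 untreated libraries behind each M1 effect given for comparison.

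ONX-0914 changed the RNA of many genes, mostly by little. Of 14692 genes, 3079 were called (21% of those tested), 1401 higher (9.54%) and 1678 lower (11.4%) with ONX-0914. The shares of 9.54% and 11.4% are the background for counts of called list members in M0 from the fit over all 24 libraries. Counts under another setting stand beside the calls of that setting. With a single M0 or M0_ONX library left out, 1109 to 1300 genes were called higher and 1334 to 1633 lower. The median log2 change of the genes called higher was 0.42 and that of the genes called lower was -0.31, and 2370 of the called changes were under 1.5-fold. At least 2-fold, 186 genes rose (1.27%) and 77 fell (0.524%), and at least 4-fold, 25 rose and 12 fell. The 4 M0_ONX libraries lay above all 4 M0 libraries for 1811 genes (12.3%) and below all 4 for 2138 (14.6%). Without M1 replicate 2 in the shared spread the same comparison called 4340 of 14899 tested genes, 1956 higher and 2384 lower, among them all 3079. Those larger numbers are the background for counts given without M1 replicate 2.

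**Figure D1:**
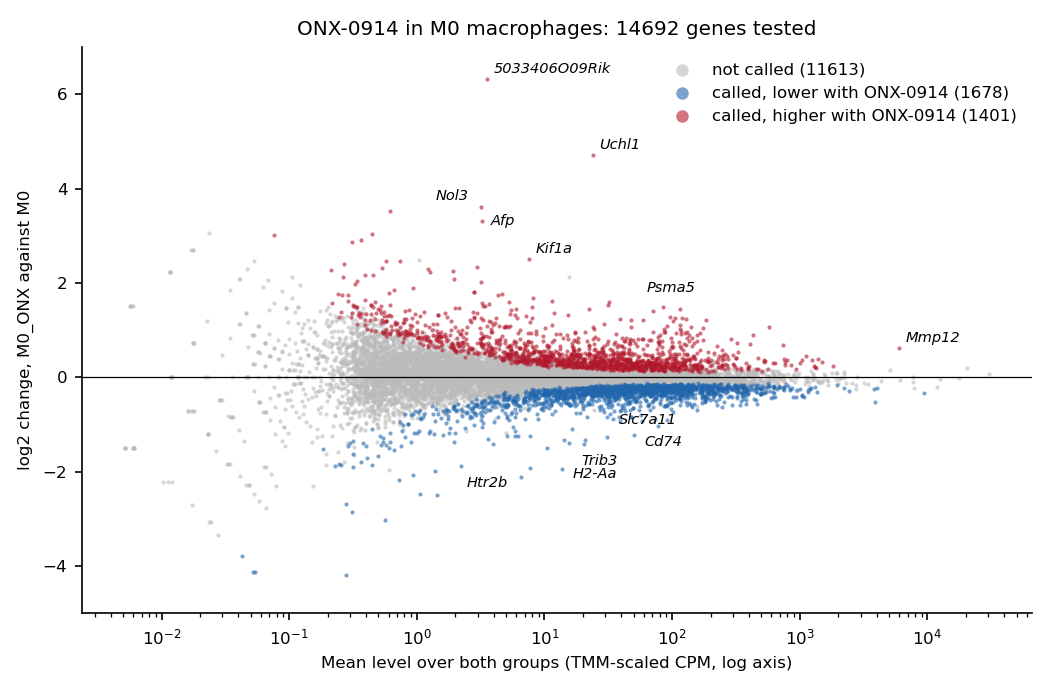
Log2 change with ONX-0914 in M0 macrophages (vertical) against the mean level in CPM over both groups (horizontal, log axis), 1 point per tested gene, coloured by call. Most called genes lie within 1 log2 unit of 0, while 5033406O09Rik, Uchl1, Nol3, Afp and Kif1a stand above 2.

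The strongest rises were in genes that were nearly silent in untreated cells. Uchl1, a deubiquitinase known from neurons (chromosome 5, 66676091 to 66687234, plus strand, GRCm38), had 1.98, 1.32, 2.12 and 1.66 CPM in the M0 libraries. With ONX-0914 it had 49.5, 43.4, 46.2 and 46.4 CPM (log2 change 4.71 ± 0.11 SE, adjusted p = 3.14e-21), so that the lowest treated library lay far above the highest untreated one. Nol3 (ARC, an inhibitor of apoptosis, chromosome 8, 105276140 to 105281939) went from 0.482, 0.687, 0.338 and 0.414 CPM to 6.10, 5.24, 5.34 and 7.02. The change of Nol3 was 3.62 ± 0.22 on the log2 scale (adjusted p = 1.18e-12), and a gene on the opposite strand with counts overlaps it, as holds for 11 of the 30 largest rises and falls among genes of at least 5 CPM. Afp (α-fetoprotein) belongs to the same class, with at most 0.821 CPM in M0 and at least 5.53 in M0_ONX.

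Other large rises were in genes of unlike function. Kif1a, a kinesin motor of axonal transport, had 1.93, 2.70, 2.12 and 2.32 CPM in M0 and 13.4, 12.5, 12.5 and 13.3 in M0_ONX (log2 change 2.51 ± 0.12). Bag2, a cochaperone that inhibits the ubiquitin ligase CHIP, had 1.64, 1.81, 2.08 and 2.77 CPM and then 7.91, 7.03, 7.26 and 6.50 (1.77 ± 0.14). Mllt11 rose from 5.63 to 17.4 CPM on average and Trim6, an E3 ligase, from 1.99 to 6.72. Both groups of libraries were clear of each other for each of these genes. Pde8b, a cAMP phosphodiesterase, rose from 3.83 to 12.3 CPM. Ptprn, a protein of neuroendocrine secretory granules, rose from 2.60 to 7.89 CPM. Clec2i, a ligand of NK cell receptors, rose from 15.9 to 48.0 CPM, again with no overlap between the groups.

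A noncoding gene showed the largest change of all. The long noncoding RNA 5033406O09Rik (chromosome 12, 111941991 to 111944484, minus strand, GRCm38) is known by a clone name and was picked out after its values were seen. It had 7 counts over the M0 libraries and 601 over the M0_ONX libraries. In CPM this was 0.0965, 0.0981, 0.145 and 0 without and 6.10, 7.31, 7.35 and 7.30 with ONX-0914 (log2 change 6.32 ± 0.35, adjusted p = 3.26e-13). Its RNA was close to absent in M0 and present at an even level in every treated library.

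The start regions of some of these genes hold the letters of the antioxidant response element, the site class that NRF1 and NRF2 bind with small MAF partners. Windows of 250 bases before to 50 after the annotated start (RefSeq, GRCm38.p6) were searched on both strands for the core TGACNNNGC and for the strict form TGACTCAGC, whose letters TGACTCA are also those of an AP-1 site. Of the tested genes, 10483 matched a window by symbol. The strict form was in 0.426% of the windows of all tested genes, 1.27% of the windows of genes called higher (17 of 1335) and 0.408% of those of genes called lower. The core was in 14.3% of all windows, 17.8% of the windows of genes called higher and 15.6% of those of genes called lower. A match describes letters and is not evidence of binding. The stretches below are shown because they belong to the largest rise (5033406O09Rik), to 3 called genes with the strict form chosen after their values were seen (Pir, Prdx1, Procr) and to the 3 called 19S genes with the core. Each is 5′ to 3′ along its gene, with the match in capitals.
5033406O09Rik, chr12:111944666-111944732, minus strand, match 214 to 222 bases before the start: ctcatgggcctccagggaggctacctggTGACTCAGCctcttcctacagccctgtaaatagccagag
Pir, chrX:164269187-164269255, plus strand, match 206 to 214 bases before the start: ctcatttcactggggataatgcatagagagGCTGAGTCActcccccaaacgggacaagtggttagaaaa
Prdx1, chr4:116685436-116685504, plus strand, match 125 to 133 bases before the start: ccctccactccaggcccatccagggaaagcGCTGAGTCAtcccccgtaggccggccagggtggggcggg
Procr, chr2:155751033-155751101, plus strand, match 146 to 154 bases before the start: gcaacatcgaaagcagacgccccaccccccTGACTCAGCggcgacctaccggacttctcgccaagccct
Adrm1, chr2:180171396-180171464, plus strand, match 154 to 162 bases before the start: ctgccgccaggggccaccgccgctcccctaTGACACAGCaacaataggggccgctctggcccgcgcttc
Psmc6, chr14:45329574-45329635, plus strand, match 219 to 227 bases before the start: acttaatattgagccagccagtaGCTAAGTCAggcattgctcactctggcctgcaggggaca
Psmd12, chr11:107479278-107479319, plus strand, match 239 to 247 bases before the start: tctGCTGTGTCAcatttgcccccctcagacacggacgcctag

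The genes behind these stretches all rose. Pir (pirin, an iron-binding nuclear protein) went from 5.98, 6.67, 5.75 and 4.84 CPM to 11.6, 10.99, 10.7 and 12.2 (log2 change 0.97 ± 0.11). Procr, the endothelial protein C receptor, went from 26.4, 19.9, 23.4 and 23.5 CPM to 42.1, 34.4, 32.7 and 43.3 (0.71 ± 0.099). Prdx1, a peroxiredoxin that removes hydrogen peroxide, was abundant and rose from 1084 to 1401 CPM (0.37 ± 0.067). Since the genes were chosen among those called higher, their rise is a description. Among 12 windows of 20S genes the core was in 2 (Psmb5 and Psmb6), among 17 windows of 19S genes in 4, and among 33 windows of NRF2 target genes in 10. Lists with mostly lower calls held it as well, in 7 of 27 windows of ATF4 genes, 3 of 11 of MHC class II genes and 4 of 24 of cholesterol genes.

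The constitutive proteasome rose as a unit. All 14 genes of the 20S core and 17 of 19 genes of the 19S particle were called higher, with median log2 changes of 0.82 and 0.96, beside 9.54% of all tested genes and a median of -0.00082 over them. Psma5, an α-ring subunit, went from 45.9, 43.2, 45.6 and 43.8 CPM to 133, 127, 115 and 127. Psmb3, a noncatalytic β subunit, went from 58.5, 61.3, 60.9 and 53.4 CPM to 134, 126, 119 and 121. The 2 groups did not overlap for any 20S gene. The catalytic subunit Psmb6 had the smallest rise in the barrel, from 203 to 251 CPM (log2 change 0.31 ± 0.069).

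Within the 19S cap, rises were seen in the ATPases of the base, in the ubiquitin receptors and in other subunits. Psmd11 had the largest (log2 change 1.29). Psmc6, an ATPase of the base, went from 75.4, 67.9, 76.9 and 63.4 CPM to 180, 163, 168 and 168 (log2 change 1.26 ± 0.10). Psmd4, the ubiquitin receptor RPN10, went from 73.7, 79.6, 76.8 and 77.0 CPM to 194, 181, 173 and 177 (1.24 ± 0.074). Adrm1, the ubiquitin receptor RPN13, went from 62.2 to 142 CPM on average (1.19 ± 0.073). Psmd8 (543 and 511 CPM) and Sem1 (88.7 and 83.6 CPM) were the members not called, with overlapping groups.

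The factors that build or regulate the proteasome split by member. Of 12 tested, 4 were called higher and none lower, while 3 were called lower without M1 replicate 2, 2 without M0 replicate 4 and 1 without M0 replicate 3 or M0_ONX replicate 1, 2 or 3. Pomp, the chaperone that matures the barrel, went from 95.4, 85.9, 91.9 and 82.5 CPM to 152, 133, 133 and 147 (log2 change 0.67 ± 0.055). Psmd5, a chaperone of the base, rose from 33.0 to 50.9 CPM, Ecpas, a scaffold that binds proteasomes, from 111 to 183, and Psme4, the PA200 cap, from 76.8 to 122. The immunoproteasome went the other way. Psmb8, the main target of ONX-0914, had 56.5, 51.1, 52.4 and 48.0 CPM in M0 and 40.5, 42.7, 44.0 and 39.7 in M0_ONX (log2 change -0.32 ± 0.073, adjusted p = 0.00249). Psmb10 fell from 62.9 to 50.3 CPM. Of the 5 genes of the immunoproteasome and its PA28 cap, 3 were called lower, and 5 were without M1 replicate 2 or without M0 replicate 4.

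The p97 ATPase and several of its cofactors rose, and the NRF1 gene fell. Of 15 genes of p97, its cofactors and NRF1 processing, 7 were called higher and 3 lower. Vcp, the p97 ATPase, went from 311, 282, 302 and 313 CPM to 560, 565, 544 and 592 (log2 change 0.90 ± 0.058). Nploc4 went from 86.3, 85.6, 87.8 and 94.2 CPM to 171, 174, 174 and 174, and its partner Ufd1 from 47.3, 40.5, 41.8 and 43.5 to 75.8, 76.0, 75.9 and 75.6. Nsfl1c, the p47 cofactor, rose from 47.9 to 93.8 CPM. Nfe2l1 had 286, 304, 305 and 298 CPM and then 201, 223, 208 and 202 (-0.51 ± 0.055). The protease gene Ddi2 fell from 108 to 94.4 CPM and Sel1l, an adaptor of the HRD1 ER ligase, from 266 to 223.

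Ubiquitin genes and conjugating enzymes moved less. Of 37 genes, 5 were called higher and 2 lower, beside 9.54% and 11.4% of all tested genes. Ube2o, a large E2 and E3 hybrid enzyme, rose from 12.4 to 20.4 CPM. The 5 rises became 3 when M0 replicate 2 or 3, or M0_ONX replicate 1 or 4, was left out, and the falls became 7 without M1 replicate 2. Among 61 deubiquitinases, 13 were called higher and 7 lower, the falls near the share over all tested genes. After Uchl1 these rises were small, as for Usp3, a histone deubiquitinase, from 32.2 to 44.7 CPM. The falls became 4 without M0 replicate 3 or without M0_ONX replicate 3.

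**Figure D2:**
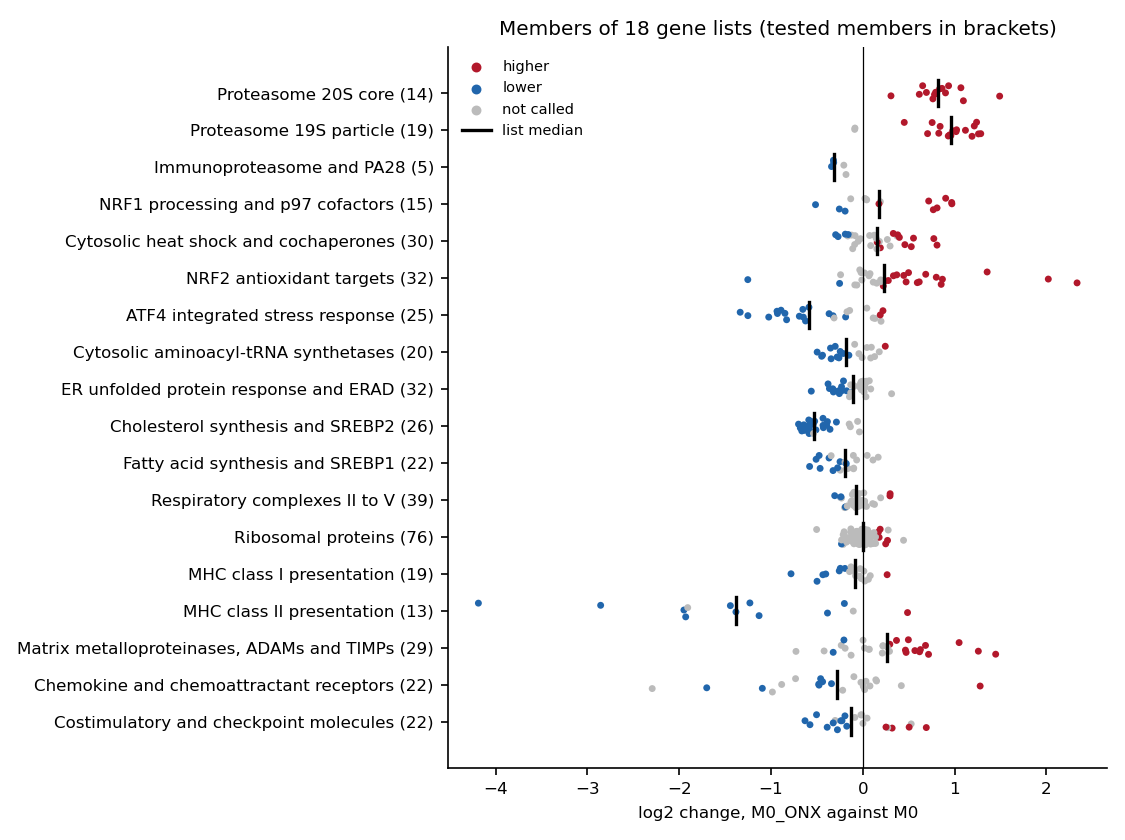
Log2 change with ONX-0914 of each tested member of 18 gene lists, with the number of tested members in brackets, the call by colour and the list median as a black bar. The medians of the constitutive proteasome lists lie to the right of 0. Those of the immunoproteasome, cholesterol, ATF4 and MHC class II lists lie to the left, and the NRF2 list spans both sides.

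The cytosolic chaperone response was partial. Of 30 heat shock and cochaperone genes, 10 were called higher and 4 lower, with a median log2 change of 0.15. The falls were 1 to 2 without M0 replicate 1, 2 or 3 or without M0_ONX replicate 2 or 3. Hsf2, a heat shock transcription factor, went from 16.5, 19.7, 21.3 and 18.97 CPM to 31.3, 33.5, 36.6 and 32.4 (0.81 ± 0.13). Hspb8, a small heat shock protein that works with BAG3 in selective autophagy, went from 7.04, 7.26, 7.15 and 7.495 CPM to 12.6, 11.7, 10.7 and 14.6 (0.77 ± 0.11). Dnajb4, an HSP40, rose from 21.8 to 31.5 CPM on average. These genes were higher in all 4 treated libraries. The inducible HSP70 genes were not called with all libraries, but both were without M1 replicate 2 (adjusted p = 0.0385 for Hspa1a and 0.0496 for Hspa1b), and Hspa1b was without M0 replicate 1 (0.0252). Hspa1a had 2.51, 2.70, 2.56 and 2.65 CPM and then 3.30, 3.07, 3.70 and 3.41 (0.37 ± 0.14, adjusted p = 0.0695), and Hspa1b had 6.96 and 8.58 CPM on average with overlapping groups. The pair is nearly identical in sequence, and the counting could have divided their reads.

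Genes of the CCT chaperonin and tubulins were mostly not called: 5 of 24 were called higher and 1 lower. Over all tested genes 9.54% were called higher and 11.4% lower, beside which the counts of this paragraph with all 24 libraries stand. Tubb4b rose from 85.0 to 142 CPM, Tuba4a from 79.3 to 112 and the chaperonin subunit Cct3 from 98.3 to 146. Autophagy genes were called in both directions, 10 higher and 8 lower of 43. Gabarapl1, an ATG8 protein of autophagosome membranes, rose from 208 to 289 CPM and the initiating kinase Ulk1 from 38.9 to 50.6. Map1lc3a, another ATG8 protein, fell, with a log2 change of -0.40 ± 0.075. Lysosomal genes were called lower in 10 of 48 and higher in 1, Gaa (acid α-glucosidase), which rose from 270 to 391 CPM. Without M1 replicate 2 the lower count was 19, beside 2384 of 14899 tested genes called lower in that setting.

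NRF2 target genes rose in part. Of 32 tested, 17 were called higher and 2 lower, with a median log2 change of 0.23. Aox1, aldehyde oxidase, went from 0.675, 1.08, 0.869 and 1.24 CPM to 5.54, 3.96, 4.70 and 5.55 (2.33 ± 0.21). Mgst2, a microsomal glutathione transferase, went from 1.45, 1.18, 1.21 and 1.16 to 5.72, 4.67, 5.02 and 4.88 (2.02 ± 0.18). Me1, malic enzyme, which makes NADPH, went from 5.79, 6.72, 6.23 and 7.99 to 17.9, 18.9, 14.7 and 17.2 (1.35 ± 0.11). Both exceptions are genes of thiol metabolism, but so are Gclm, Gsr, Prdx1 and Srxn1, which were called higher. Slc7a11, the cystine transporter, fell from 46.1, 38.1, 38.0 and 51.5 CPM to 19.96, 17.8, 17.3 and 17.8 (-1.25 ± 0.13), and Txnrd1, thioredoxin reductase, fell from 245 to 206. Slc7a11 is also an ATF4 target.

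Of 9 genes of NRF2 and its regulators, 3 were called higher (log2 change 0.21 to 0.37) and 2 lower (-0.24 to -0.16). Keap1 was among the rises and Nfe2l2 among the falls, and the superoxide genes changed unequally. Mafg, the small MAF partner, rose from 93.7 to 121 CPM, and Bach1, the repressor of these sites, fell from 157 to 133. Sod1, cytosolic superoxide dismutase, went from 66.0, 60.2, 63.0 and 55.5 CPM to 174, 166, 157 and 175 (log2 change 1.46 ± 0.093). Of 11 genes of the NADPH oxidase and superoxide dismutases, 3 were called higher and 5 lower. Cybb, the catalytic oxidase subunit, rose from 913 to 1172 CPM, whereas the proton channel gene Hvcn1 fell from 241 to 175. Iron genes called were all lower, 4 of 21, and 8 without M1 replicate 2. Tfrc, the transferrin receptor, fell from 79.4, 81.7, 71.9 and 79.5 CPM to 50.5, 50.5, 54.2 and 49.9.

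Genes of cell death and inflammasomes were called in both directions. Of 21 genes of necroptosis, pyroptosis and the inflammasome, 7 were called higher and 3 lower. Mlkl, the executioner of necroptosis, went from 17.8, 17.5, 14.6 and 15.4 CPM to 48.9, 46.7, 44.9 and 47.7 (log2 change 1.53 ± 0.060, adjusted p = 1.62e-16). Casp1 rose from 57.6 to 97.1 CPM and the sensor Nlrp3 from 8.47 to 11.8, while Pycard, the adaptor between them, was called lower. In the BCL2 family and its inhibitors 2 of 17 were called higher and 6 lower. Bcl2a1d, an antiapoptotic member, fell from 47.2, 37.9, 40.9 and 39.5 CPM to 23.96, 26.0, 22.02 and 24.1, and its copy Bcl2a1a fell by 0.78 as well. The Bcl2a1 genes are near-identical copies, and reads could have been divided among them. Of 20 p53 targets, 6 were called higher and none lower, and 3 without M0_ONX replicate 4. Plk3, a stress kinase, rose from 4.23 to 8.12 CPM.

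**Figure D3:**
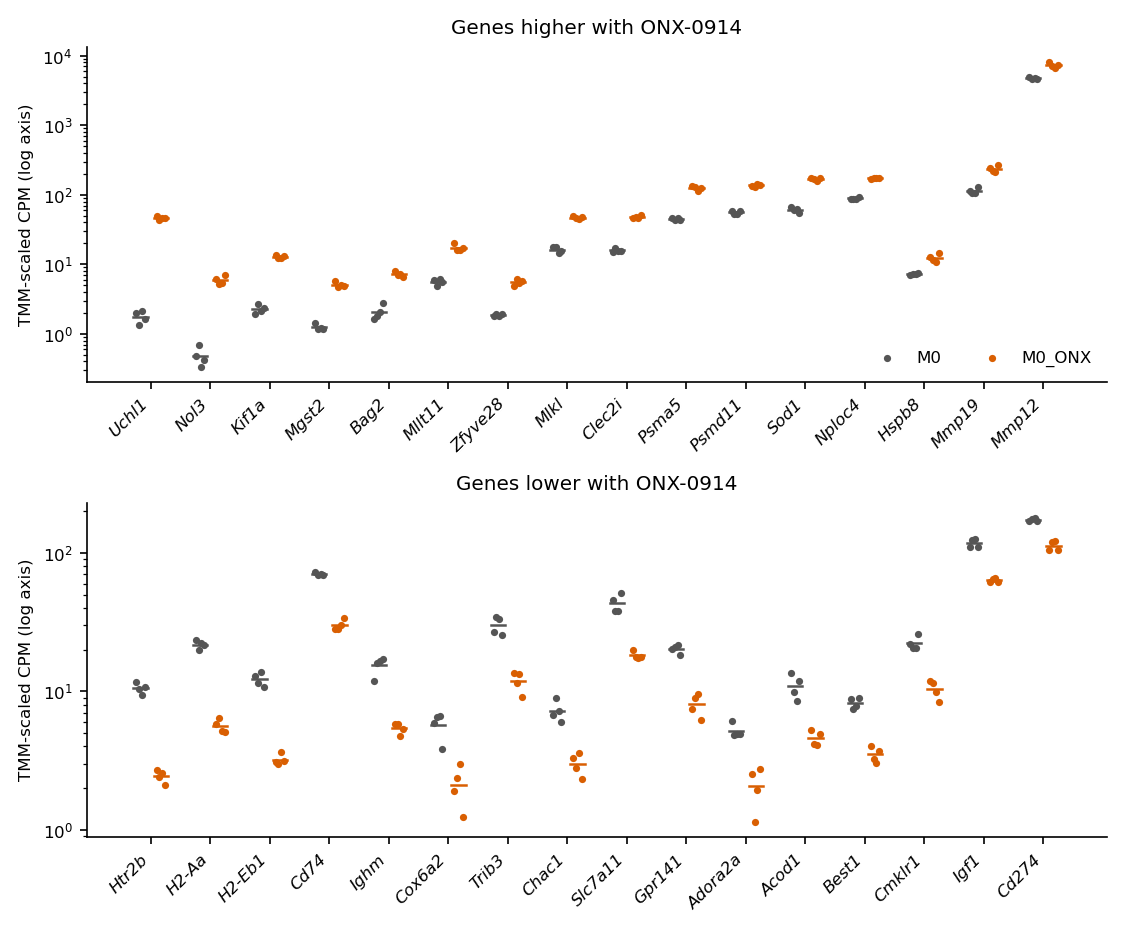
CPM (log axis) in each of the 4 M0 (grey) and 4 M0_ONX (orange) libraries for 16 genes higher and 16 genes lower with ONX-0914, with group means as bars. For each gene plotted the libraries of the 2 groups do not overlap.

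ATF4 and its target genes fell together. Of 25 tested genes of the integrated stress response, 16 were called lower and 2 higher, with a median log2 change of -0.59, beside 11.4% of all genes called lower. Atf4 itself went from 301, 311, 307 and 272 CPM to 201, 190, 203 and 179 (-0.62 ± 0.057, adjusted p = 4.7e-09). Trib3, a pseudokinase that feeds back on this pathway, went from 26.7, 34.7, 33.2 and 25.3 CPM to 13.6, 11.4, 13.3 and 9.10. Chac1, which degrades glutathione, went from 6.71, 8.88, 7.20 and 6.004 to 3.30, 2.78, 3.61 and 2.32. The treated libraries were the lower ones throughout. Serine synthesis and asparagine synthesis genes were among those that fell: Phgdh from 75.7 to 39.6 CPM (-0.93 ± 0.071) and Asns from 51.5 to 27.0 (-0.93 ± 0.088). Ddit3 (CHOP), the death-related factor of this response, fell from 33.8 to 20.9 CPM. The 2 members called higher were Ppp1r15a (GADD34), a phosphatase subunit that reverses the eIF2α mark, and Slc3a2, a transporter chain, and neither was called without M0 replicate 4 or without M0_ONX replicate 1.

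Among genes that load or import amino acids, most calls were falls as well. Of 20 cytosolic aminoacyl-tRNA synthetases, 11 were called lower and 1 higher (3 higher without M1 replicate 2), with a median log2 change of -0.18. Cars, for cysteine, went from 82.4, 81.0, 80.7 and 85.0 CPM to 62.6, 58.6, 57.7 and 54.3 (-0.50 ± 0.055), and Sars, for serine, from 226 to 177 on average. Qars, for glutamine, was the member that rose, from 94.9 to 113 CPM. Of 26 amino acid transporters, 10 were called lower and 2 higher. Slc7a1, which carries arginine and lysine, went from 61.4, 72.9, 69.7 and 68.0 CPM to 38.2, 48.8, 45.4 and 37.0 (-0.68 ± 0.067). Slc7a5, the LAT1 leucine carrier, fell from 18.5 to 12.7 CPM.

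The unfolded protein response of the ER also lay lower. Of 32 genes, 13 were called lower and none higher, with a median log2 change of -0.11. Sdf2l1, an ER chaperone partner, went from 60.2, 55.2, 53.4 and 45.5 CPM to 35.97, 35.1, 38.0 and 36.04 (-0.56 ± 0.12). Pdia6, a disulfide isomerase, fell from 194 to 151 CPM, and Herpud1, a component of ER-associated degradation, from 34.4 to 27.4. The chaperone Hspa5 (BiP) fell from 557 to 476 CPM, with no overlap between groups.

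Sterol synthesis genes fell along most of the pathway. Of 26 genes of cholesterol synthesis and its SREBP2 control, 21 were called lower and none higher, with a median log2 change of -0.53. Sqle, squalene epoxidase, went from 55.2, 64.1, 63.6 and 59.1 CPM to 35.5, 42.6, 41.7 and 35.2 (-0.64 ± 0.071). Stard4, a sterol carrier, went from 33.9, 34.1, 37.3 and 36.8 to 22.5, 24.5, 20.1 and 22.7 CPM (-0.66 ± 0.068). Changes over the list ran from -0.70 (Tm7sf2) to -0.04 (Fdps, not called). Fatty acid synthesis fell in 10 of 22 genes with none called higher. Scd2, a fatty acid desaturase, went from 138, 159, 153 and 177 CPM to 98.3, 107, 111 and 104 (-0.58 ± 0.068), and Fasn, fatty acid synthase, from 60.9 to 43.8 on average. Fabp4, a fatty acid binding protein of macrophages, fell from 418 to 338 CPM, and Angptl4, a PPAR target that inhibits lipoprotein lipase, rose from 2.58 to 5.07.

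In energy metabolism calls ran in both directions, and they were more frequent in glycolysis than in the respiratory chain. In glycolysis and lactate export 5 of 21 genes were called higher and 7 lower. Gpi1 rose from 271 to 360 CPM, and Tpi1 fell from 310 to 234 and the transporter Slc2a6 from 43.6 to 26.4. Acod1, which makes itaconate, went from 13.7, 9.81, 8.50 and 11.8 CPM to 5.26, 4.15, 4.11 and 4.88 (log2 change -1.25 ± 0.23), and was the member called lower among 20 TCA and itaconate genes, of which 4 were called higher. Falls in that list were 3 without M0 replicate 4 and 4 without M1 replicate 2. None of 12 tested mitochondrially encoded mRNAs was called. Cox6a2, an isoform of complex IV from striated muscle, went from 5.89, 6.52, 6.66 and 3.81 CPM to 1.91, 2.36, 2.97 and 1.23, but a gene on the opposite strand, Itgad, overlaps it. Of 76 ribosomal protein genes, 5 were called higher and 1 lower, with a median of -0.0013. In complex I, 4 of 37 genes were called higher and 2 lower, and in complexes II to V 2 of 39 and 4. Both kinds of count rested on single libraries: the complex I falls were 0 without M0 replicate 1, 2 or 3 or without M0_ONX replicate 1 or 3, and 8 without M0 replicate 4, which also gave 1 rise and 7 falls among ribosomal proteins.

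The largest fall among genes of at least 5 CPM in M0 was in a gene that overlaps a proteasome gene. Htr2b, a serotonin receptor gene on the minus strand (chromosome 1, 86099026 to 86111970), lies inside Psmd1 on the plus strand (chromosome 1, 86064387 to 86139151). Htr2b had 11.7, 10.3, 9.37 and 10.8 CPM in M0 and 2.70, 2.41, 2.56 and 2.09 in M0_ONX (log2 change -2.11 ± 0.14). Psmd1, a scaffold of the 19S base, had 111, 112, 113 and 110 CPM and then 270, 257, 239 and 270 (1.21 ± 0.045). The strand setting of the counting was not stated in the material used, so reads of the pair may not have been told apart, although their counts moved in opposite directions.

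Other genes with large falls were receptors and channels. Gpr141, an orphan receptor, went from 20.3, 20.9, 21.6 and 18.3 CPM to 7.40, 8.96, 9.64 and 6.21 (log2 change -1.33 ± 0.16). Adora2a, an adenosine receptor that restrains inflammation, went from 6.08, 4.85, 4.88 and 4.93 to 2.51, 1.13, 1.92 and 2.75 (-1.32 ± 0.20). Best1, a chloride channel, fell from 8.25 to 3.50 CPM. Among 26 channels and purinergic receptors, 7 were called lower and 1 higher. Kcnn4, the calcium-activated KCa3.1 channel, went from 46.4, 50.5, 53.8 and 46.0 CPM to 27.4, 31.2, 26.8 and 23.8 (-0.85 ± 0.11). Trpm2, a cation channel opened by oxidative stress, was the member that rose, from 3.44 to 7.31 CPM.

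Genes that define the macrophage moved modestly. Of 23 genes found in all macrophages, 3 were called higher and 6 lower, and 10 lower without M1 replicate 2. Lyz2, lysozyme, went from 11807, 10106, 10105 and 9966 CPM to 8655, 8227, 7867 and 8593 (log2 change -0.33 ± 0.064). Cebpa, a myeloid transcription factor, fell from 243 to 185 CPM. Itgam (CD11b) rose from 93.1, 103, 107 and 112 CPM to 132, 137, 154 and 125 (0.40 ± 0.082). Of 23 tested genes of resident large peritoneal macrophages, 2 were called higher and 2 lower. Gata6 was not called (log2 change -0.0046 ± 0.096), nor was Adgre1.

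Sensing and uptake genes were mostly not called, and the called ones were mainly lower. The 3 chains of C1q, the complement starter made by macrophages, fell together: C1qa from 50.3 to 36.3 CPM, C1qb from 110 to 81.1 and C1qc from 82.4 to 57.3. C3ar1, the receptor of complement C3a, went from 512, 540, 535 and 532 CPM to 383, 396, 373 and 368 (log2 change -0.48 ± 0.046). Fcgr1, which binds monomeric IgG, dropped from 11.5 to 6.27 CPM, while Fcgr4, which binds IgG2a and IgG2b, rose from 58.1 to 79.7. Of 24 Toll-like receptor and adaptor genes, 1 was called higher and 5 lower, the latter 2 to 3 without any single library of the 2 groups other than M0 replicate 4. Ticam2, an adaptor of TLR4, fell by 0.37 ± 0.063 on the log2 scale, and Msr1, a scavenger receptor, by 0.39 ± 0.072.

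Calls among chemokines were mostly rises and those among chemoattractant receptors mostly falls. Of 23 chemokines, 5 were called higher and 1 lower, beside 9.54% and 11.4% of all tested genes, and 17 were not called. Ccl9 went from 30.7, 29.7, 27.0 and 27.1 CPM to 73.9, 61.4, 63.6 and 65.7 (log2 change 1.21 ± 0.12), and Ccl2, which attracts monocytes, from 25.5 to 32.4 on average. Of 22 receptors, 7 were called lower and 1 higher, and 14 were not called. Cmklr1, the chemerin receptor, went from 21.8, 20.7, 20.7 and 25.9 CPM to 11.9, 11.5, 9.96 and 8.44 (-1.09 ± 0.098). Cxcr3 was the receptor that rose, from 1.64 to 3.98 CPM.

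Cytokine, receptor and checkpoint genes leaned to lower levels. Of 42 cytokine and receptor genes, 11 were called lower and 2 higher. Igf1, a growth factor made by tissue macrophages, went from 111, 125, 126 and 111 CPM to 61.2, 64.5, 66.5 and 61.2 (log2 change -0.90 ± 0.069). Il2rg, the common γ chain, fell by 0.60 ± 0.078, and Tnfrsf1b, the second TNF receptor, from 507 to 369 CPM. Il18bp, a decoy for IL-18, was among the rises (0.69 ± 0.094). Of 22 costimulatory and checkpoint genes, 10 were called lower and 4 higher. Cd274 (PD-L1) went from 171, 176, 180 and 171 CPM to 105, 119, 122 and 105 (-0.63 ± 0.062), and Cd40 rose from 1.44 to 2.33 on average. The rises were 2 without M0 replicate 1 or 4 or without M0_ONX replicate 2. In the NF-κB list 7 of 26 were called lower and 2 higher, the rises 1 without any single library of the 2 groups. Relb, a subunit of the noncanonical pathway, fell from 22.6, 25.7, 22.99 and 24.6 CPM to 17.5, 16.1, 16.2 and 13.1.

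Many proteases of the extracellular matrix rose. Of 29 tested matrix metalloproteinases, ADAM proteases, TIMPs and related inhibitors, 13 were called higher and 2 lower (4 lower without M1 replicate 2), with a median log2 change of 0.27. Mmp19 went from 115, 104, 105 and 128 CPM to 241, 220, 210 and 266 (1.05 ± 0.076). Mmp8, a collagenase, went from 3.14, 2.70, 2.90 and 3.93 to 9.21, 8.26, 8.72 and 8.58 (1.45 ± 0.17), and its neighbour gene Mmp27 from 4.66 to 11.2 on average. Mmp12, the macrophage elastase, had 4866, 4644, 4749 and 4630 CPM without and 8067, 7097, 6582 and 7443 with ONX-0914.

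Interferon-stimulated genes were called about as often as genes in general. Of 36 genes, 4 were called higher and 6 lower, beside 9.54% and 11.4% of all tested genes, and the lower count was 10 without M1 replicate 2 and 2 without M0 replicate 2 or without M0_ONX replicate 4. Of 26 interferon regulatory factor and JAK-STAT genes Irf1 alone was called in the fit over 24 libraries, lower, from 23.4 to 18.2 CPM. Of 19 genes of MHC class I presentation, 7 were called lower and 1 higher. H2-K1, a classical class I heavy chain, went from 1288, 1163, 1175 and 1110 CPM to 918, 891, 879 and 892 (log2 change -0.40 ± 0.070). H2-M2, a nonclassical gene outside this list, fell from 9.31, 8.34, 8.11 and 9.03 CPM to 3.21, 3.11, 3.43 and 5.03. Class I genes are close copies of each other, and reads could have been divided among them.

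MHC class II genes and B cell markers were both lower with ONX-0914. Of 13 class II genes, 10 were called lower and 1 higher, with a median log2 change of -1.38. H2-Aa went from 23.5, 19.8, 22.3 and 21.6 CPM to 5.82, 6.46, 5.16 and 5.12 (-1.95 ± 0.079), H2-Eb1 from 12.3 to 3.21 on average and H2-Ab1 from 22.3 to 8.56. Cd74, the invariant chain that escorts class II molecules, went from 72.7, 69.6, 71.1 and 69.1 to 28.2, 28.4, 30.1 and 33.7 CPM (-1.23 ± 0.066). The master regulator Ciita fell from 1.43 to 0.656 CPM, with overlapping groups. Ifi30, a lysosomal reductase that macrophages also use, was the member that rose, from 215 to 302 CPM.

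The B cell markers, 20 genes whose defining members are found in peritoneal B cells, fell in 14 of 15 tested, and in 9 when tested genes were limited to those with at least 1 CPM in 4 libraries. Ighm, the IgM heavy chain, went from 11.9, 16.0, 16.5 and 17.1 CPM to 5.82, 5.85, 4.75 and 5.36 (log2 change -1.50 ± 0.15). Cd79a, of the B cell receptor, went from 1.88, 2.99, 2.03 and 2.94 to 0.326, 0.519, 0.274 and 0.616 (-2.49 ± 0.34), and Ms4a1 (CD20) from 1.79 to 0.316 on average. Cd22, which made up most of the sum, fell less, from 85.6 to 55.3 CPM (-0.63 ± 0.056). The summed level of the list was 118 to 131 CPM in M0 and 67.9 to 73.7 in M0_ONX, a ratio of 0.562. In an exact two-sided permutation test of the sum, 4 libraries against 4, p was 0.0286, the smallest that test can give, and 0.0857 after adjustment over the 9 marker lists. In bulk RNA, fewer cells of a type and less RNA per cell cannot be told apart, and the part of B cells in the fall of class II genes was not tested.

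**Figure D4:**
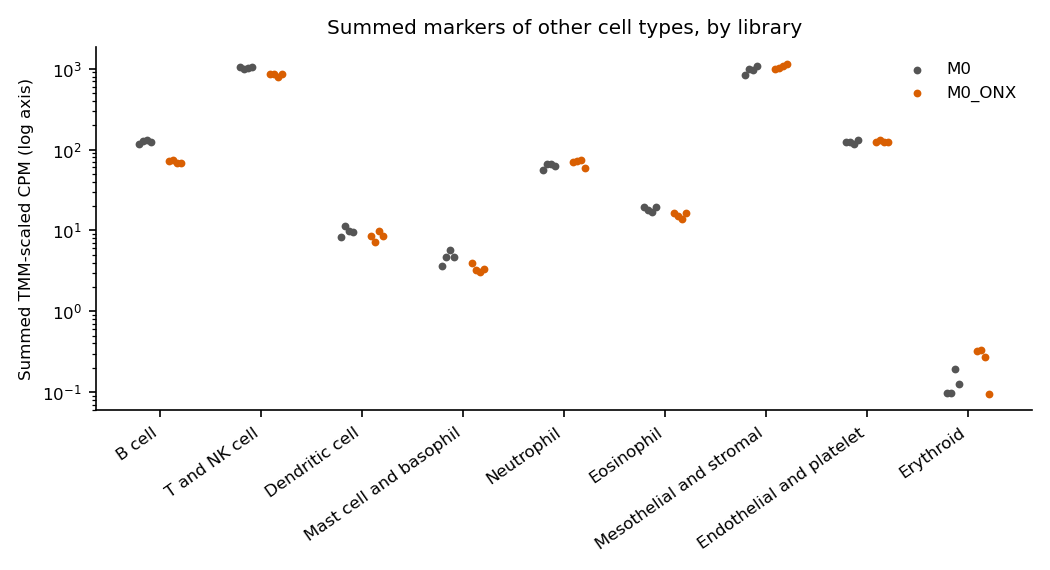
Summed CPM (log axis) of the markers of 9 other cell types in each M0 (grey) and M0_ONX (orange) library. The B cell sum lies at 118 to 131 CPM in M0 and 67.9 to 73.7 in M0_ONX.

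Markers of the other cell types were summed in the same way. The T and NK cell sum was 999 to 1046 CPM in M0 and 791 to 856 in M0_ONX, nearly all of it Il7r (1021 and 834 CPM, adjusted p = 0.0737), and Ncr1 had no count. The T and NK sum and the eosinophil sum did not overlap between groups and had the same exact permutation p as the B cell sum (0.0286, adjusted 0.0857). The eosinophil sum was 16.7 to 19.4 and 13.7 to 16.3 CPM, led by Siglecf, with Epx, Prg2, Prg3 and Ear6 at no count. The stromal sum was high in both groups, 833 to 1094 and 998 to 1159 CPM, and overlapped. Neutrophil markers summed to 55.6 to 66.4 and 59.3 to 74.7 CPM and were led by Csf3r (44.0 and 46.2 CPM). That list includes Mmp8 itself, S100a9, Ly6g, Retnlg and Mpo had no count, Ltf had 36 counts over the M0 and 21 over the M0_ONX libraries, and S100a8 had 4.63 and 2.88 CPM; the part of neutrophils in the rise of Mmp8 was not tested. Dendritic, mast cell, endothelial and erythroid sums were 8.30 to 11.4, 3.62 to 5.70, 118 to 129.6 and 0.0965 to 0.193 CPM in M0, and overlapped with M0_ONX.

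Cell cycle genes were low to moderate in level and few were called. Of 34 genes of DNA replication, 7 were called lower and none higher, and of 30 genes of mitosis 1 each way. Pcna, the sliding clamp of DNA polymerases, went from 233, 219, 219 and 201 CPM to 170, 171, 154 and 152 (log2 change -0.43 ± 0.061). Mcm3, of the replicative helicase, fell from 31.3 to 23.9 CPM.

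Long noncoding RNAs rose more often than they fell. Of 319 tested long intergenic genes, 48 were called higher and 3 lower, beside 9.54% and 11.4% of all tested genes. In either direction 16.0% of them were called, beside 21% of all tested genes. The share of all counts on long intergenic genes was 0.228% to 0.250% in M0 and 0.327% to 0.445% in M0_ONX. Malat1, retained in nuclear speckles, went from 559, 591, 508 and 617 CPM to 929, 854, 986 and 885 (log2 change 0.68 ± 0.12). Neat1, the scaffold of paraspeckles, went from 308, 443, 389 and 338 to 642, 786, 1167 and 502 (1.07 ± 0.17). Both were named after their values were seen. The share of counts on mitochondrial genes moved the other way, as given above, and the part of that shift in these differences was not tested.

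Compared with the effect of ONX-0914 in M1 and M2 cells, the response in M0 was smaller for many heat shock genes. The median changes of the ATF4 and tRNA synthetase lists differed in sign from those in M1. The difference of effects, M1 minus M0, was called for 1014 genes as positive (6.9%) and 1820 as negative (12.4%), and for 1425 and 2304 without M1 replicate 2. M2 minus M0 was called for 907 genes (6.17%), 505 as positive (3.44%) and 402 as negative (2.74%), and for 949 and 723 when M1 replicate 2 was left out. These differences use the M0 libraries too, so they are not independent of the values above. Of the 30 heat shock genes, the difference from M0 was positive for 19 in M1 and 14 in M2, and negative for 1 (Fkbp5) in each. The positive ones include Bag1 in M1 and Stip1 in M2, which were called lower in M0. Hspa1a changed by 0.37 in M0 against 2.22 in M1 and 2.84 in M2 (adjusted p of the differences = 1.85e-08 and 4.15e-09). Dnajb4 changed by 0.53 in M0 and by 2.05 in M1, and Hspb8 by 0.77 and 1.998.

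The median change of the ATF4 genes differed in sign between M0 and M1. In M0 it was -0.59, in M1 0.11 and in M2 -0.21, and the difference from M0 was positive for 18 of 25 genes in M1 and for 9 in M2. In M1 10 of the 25 were called higher and 5 lower, beside 16.6% and 27.7% of all tested genes, so a positive difference was often a smaller fall or none. Trib3 changed by -1.34 in M0 and 0.45 in M1 (adjusted p of the difference = 4.88e-10). Atf4 changed by -0.62 in M0, 0.39 in M1 and -0.13 in M2 (adjusted p = 9.3e-10 and 0.000249). The synthetases had a median of -0.18 in M0 and 0.24 in M1, with 13 of 20 differences positive. Cholesterol genes fell in all 3 states, with 21 of 26 called lower in M0, 23 in M1 and 22 in M2, beside 11.4%, 27.7% and 18.8% of all tested genes, and 6 fell more in M1 than in M0 (9 without M1 replicate 2).

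The constitutive proteasome rose in every state, and for many subunits less in M0. The 19S difference was positive for 12 of 19 genes in M1 and 15 in M2, and the 20S difference for 3 of 14 in M1, with 2 negative, and for 11 in M2. Without M1 replicate 2 the 20S difference in M1 was positive for 6 genes and negative for 3. Psma5 was an exception in M1, with a change of 0.82 against 1.49 in M0 (adjusted p = 3.07e-06). Of the genes raised most in M0, Kif1a (2.51 in M0, 0.93 in M1), Mgst2 (2.02 and 0.31) and Mlkl (1.53 and 0.45) responded more in M0 than in M1. Mlkl responded less in M0 than in M2 (2.48). Trpm2 rose by 1.09 in M0 and changed by -1.26 in M1 (adjusted p of the difference = 9.28e-06). Sla, an adaptor that dampens receptor signalling, fell by 0.83 in M0 and changed by -3.00 in M1 and -2.03 in M2.

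**Figure D5:**
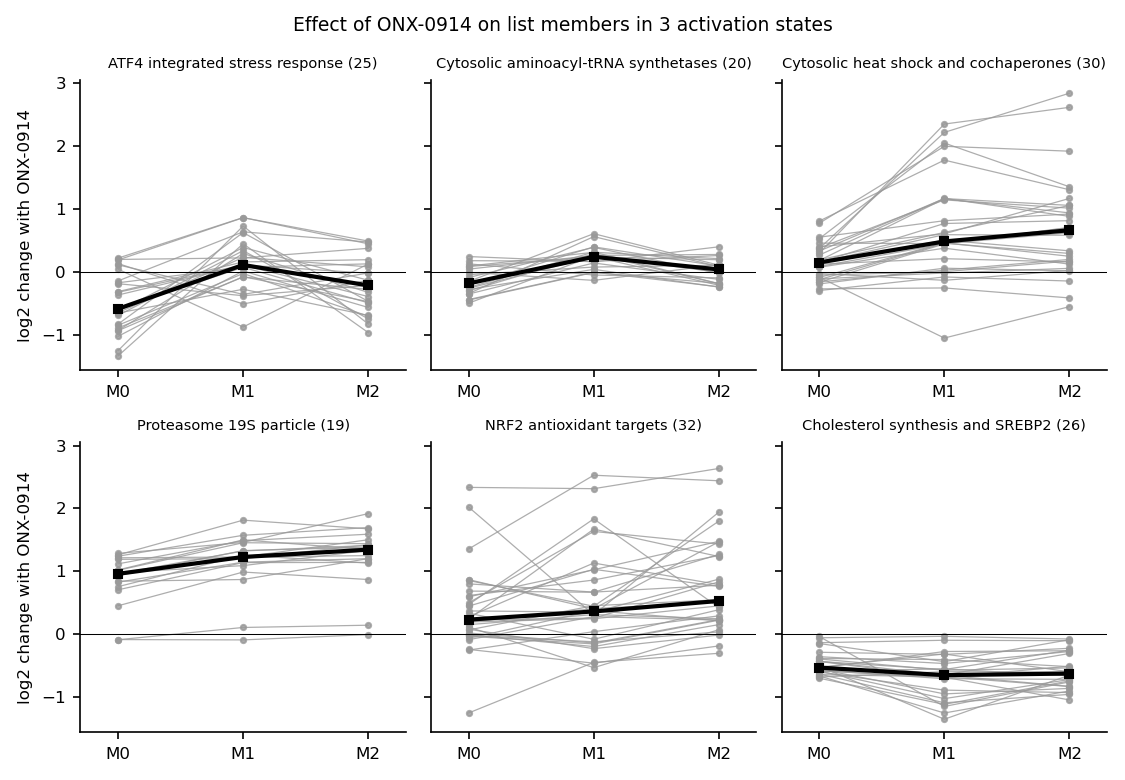
Log2 change with ONX-0914 in M0, M1 and M2 cells for the tested members of 6 gene lists (grey lines, 1 per gene, number in brackets) and the list median (black). The ATF4 and synthetase medians lie below 0 in M0 and above 0 in M1, the heat shock and 19S medians are lowest in M0, and the cholesterol median is below 0 in each state.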

How the data were processed

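PolyA RNA of 24 libraries was sequenced by the authors, and the table they deposited holds raw counts for each Ensembl identifier, as its whole-number values show. FastQC 0.11.9, cutadapt 2.8, Bowtie2 2.2.5, Picard and build mm10 are named in the submitters' processing notes, with no role or order. No counter, strandedness or annotation release is named in them.

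Symbols and positions came from GENCODE M21 (GRCm38): 54495 of 54532 features matched, and the other 37 held 0.0025% of the counts. In edgeR 4.0.16 (R 4.3.3), filterByExpr kept 14692 genes, TMM scaled the libraries and all 24 libraries entered 1 quasi-likelihood fit with a mean for each of the 6 groups and no replicate block. Calls were made at a Benjamini-Hochberg adjusted p under 0.05. Each SE was obtained from the log2 change and the F statistic (size of the change over root F). With pooled animals, p-values measure the spread between pools.

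Members and the 78 lists were chosen with earlier results of these data known. Named genes were the 15 largest rises and falls of at least 5 CPM with separated groups and a proper symbol, up to 4 called members per list of at least 1 CPM, the 6 largest differences of effects, and a fixed set. Genes outside this rule are further members of a counted list or were chosen after their values were seen. Alternatives were DESeq2 1.42.0 size factors and Wald test, no filter, a filter of 1 CPM in 4 libraries, the 8 libraries alone, a replicate block and each library left out. Summed markers under these settings, and the strict promoter letters, are alternatives added once results were known. The fit was also run on simulated counts with the same spread for all genes and no deviant library, so that run does not bear on M1 replicate 2. Some genes that the rule selects are not reported here.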

Additional observations from a re-analysis of the deposited data

Results flagged for a closer look

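Single libraries stood far from the other 3 of their group for 8 of 138 groups of 4 screened, by Dixon's ratio of the gap to the range. They were Adora2a in M0 replicate 1 (6.079 CPM), H2-Ab1 in M0 replicate 4 (19.71 CPM), H2-M2 in M0_ONX replicate 4 (5.026 CPM), Lyz2 in M0 replicate 1 (11810 CPM), Mgst2 in M0 replicate 1 (1.447 CPM), Nos2 in M0 replicate 4 (0.04141 CPM), Psmb9 in M0 replicate 4 (14.45 CPM) and Sla in M0_ONX replicate 2 (17.98 CPM). Chance alone gives this in about 1 in 20 groups.

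The log2 effect of ONX-0914 differed between M0 and another state, by edgeR's test of the difference over all genes, in 65 of 125 differences screened over 66 genes. The effect in M1 was above that in M0, by the log2 difference in brackets, for Snhg11 (2.57), Clec2i (2.37), Efcc1 (2.10), Hspa1b (2.05), Chac1 (1.98), Hspa1a (1.85), Trib3 (1.78), Nol3 (1.72), Mllt11 (1.66), H2-M2 (1.57), Afp (1.33), Htr2b (1.03), H2-Eb1 (1.03), Atf4 (1.01), H2-Aa (0.97), Sqstm1 (0.85), Slc7a11 (0.80), H2-Ab1 (0.69), Cd74 (0.48) and Nfe2l1 (0.24). It was below that in M0 for Gbp2b (-2.77), Trpm2 (-2.35), Sla (-2.17), Mgst2 (-1.71), Kif1a (-1.58), Mlkl (-1.08), Gata6 (-0.74), Arg1 (-0.72), Adgre1 (-0.71), Mrc1 (-0.70), Psma5 (-0.67), Csf1r (-0.60), Keap1 (-0.55), Psmb9 (-0.43), Itgam (-0.42), Pomp (-0.37) and Nfe2l2 (-0.31).

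In M2 the effect lay above that in M0 for Hspa1a (2.47), Hspa1b (2.32), Nol3 (1.75), H2-M2 (1.62), Acod1 (1.51), Trim6 (1.246), Bvht (1.14), Slc7a11 (0.95), Mlkl (0.95), Clec2i (0.86), Uchl1 (0.74), Bag2 (0.67), Ubb (0.66), Sqstm1 (0.62), Pde8b (0.58), Mllt11 (0.55), Atf4 (0.49), Keap1 (0.47), Psma5 (0.41), Psmb5 (0.39), Psmb7 (0.36) and Vcp (0.33). It lay below that in M0 for Cdh1 (-2.25), Ms4a6b (-1.78), Arg1 (-0.69), Mrc1 (-0.55), Itgam (-0.47) and Adgre1 (-0.45). Keap1 and Mlkl thus differed from M0 in opposite directions in M1 and M2, and so did Psma5. All 65 differences kept their direction and their call without M1 replicate 2, none moving by over 1.5 times.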

How the results depend on the processing

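No result called in M0 reversed its direction under any alternative. The 3079 genes called became 2463 to 2933 when single M0 or M0_ONX libraries were left out (1109 to 1300 higher, 1334 to 1633 lower), 3128 with DESeq2 size factors, 3155 with the DESeq2 Wald test, 2805 with no filter, 3051 with the 1 CPM filter and 3980 with the 8 libraries alone. With single M0 or M0_ONX libraries left out, the 2834 called differences of M1 minus M0 became 2448 to 2720 (873 to 976 positive, 1575 to 1744 negative), with 2469 to 2961 under the other tools, filters and the block and 3729 without M1 replicate 2. The 907 of M2 minus M0 became 660 to 860 with single M0 or M0_ONX libraries left out (383 to 469 positive, 277 to 391 negative), 868 to 1124 under the other tools, filters and the block, and 1672 (949 positive, 723 negative) without M1 replicate 2. With a replicate block 3131 genes were called. Deviations of same-numbered M0 and M0_ONX libraries had correlations of 0.13, -0.0091, -0.030 and 0.084. Those of differently numbered libraries ran from -0.14 to 0.074. Such weak values cannot settle whether equal numbers pair the libraries, which the material used does not state. Of 284 named genes 271 were called, 215 of them under every setting. Left out one library at a time, the ratio of summed markers was 0.552 to 0.570 for B cells, 0.809 to 0.831 for T and NK cells, 0.826 to 0.923 for dendritic cells, 0.678 to 0.786 for mast cells, 1.07 to 1.16 for neutrophils, 0.810 to 0.865 for eosinophils, 1.05 to 1.14 for stroma, 0.991 to 1.02 for endothelium and 1.81 to 2.42 for erythroid cells. The erythroid ratio rests on Alas2 alone, with 11 counts over the M0 and 22 over the M0_ONX libraries. The other 6 erythroid markers, the globin genes among them, had no count. Genes under about 1 CPM rest on few counts per library, and there small changes were not detectable at this depth.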
